A study of Gallus gallus with 18 samples.

Results

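The ID genes and the BMP pathway genes around them were followed in the chicken retinal pigment epithelium (RPE), the pigmented sheet behind the neural retina. The set held 10 genes, chosen by symbol: *ID1*, *ID2*, *ID3*, *ID4*, *BMP2*, *BMP4*, *BMP7*, *SMAD6*, *GREM1* and *BAMBI*. Each had 1 entry among the 18336 genes of the expression table, and each was among the 18287 genes tested. The RPE came from embryos at embryonic day 4 (E4, Hamburger Hamilton stage 24) or day 5 (E5, stage 26). At each stage there were 3 conditions. Developing RPE came from eyes that had no surgery. The 6hPR group was collected 6 h after retinectomy, the surgical removal of the neural retina. The 6hPR + FGF2 group had the same surgery, with heparin beads carrying fibroblast growth factor 2 placed in the eye cup during it. Each of the 6 groups had 3 libraries of polyA RNA, and each library pooled 3 RPE sheets, so the errors given are between pools. Retinectomy with beads lacking FGF2 was not analysed here, so beads and FGF2 cannot be told apart. No collection time matched to the 6 h after surgery is given for developing RPE. In comparisons with developing RPE, treatment and up to 6 h of development therefore cannot be told apart. The stages were compared because E4 RPE can still form new neural retina after retinectomy with FGF2, an ability that is lost by E5. The sources name different suppliers of the eggs. The RPE sheets were profiled in bulk, so fewer cells of a type and less RNA per cell cannot be told apart.

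Bone morphogenetic proteins (BMPs) are secreted ligands that bind pairs of receptor kinases at the cell surface. The receptors phosphorylate SMAD1, SMAD5 and SMAD9, which enter the nucleus and switch on target genes, among them the ID genes. ID proteins have a helix-loop-helix domain but no DNA-binding region, and they hold bHLH factors, including those that drive neurons to form, away from DNA. The pathway is also held back at several levels: GREM1 binds BMP ligands outside the cell, BAMBI is a receptor-like protein without a kinase, and SMAD6 blocks signaling inside the cell and is itself a BMP target. In the embryonic eye BMP signals take part in dorsal patterning and in the choice of optic vesicle cells to become RPE.

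Each library held 50.7 to 73.0 M reads on genes. The values are normalized counts, that is reads on a gene divided by the size factor of the library, and they are not divided by gene length, so levels are compared between groups and not between genes. Markers of the labelled tissue were detected: 12 of 12 RPE marker genes were above 0 in all 18 libraries. *PMEL*, a protein of the pigment granule, ranged from 233236 to 728328 normalized counts. Markers of other cell types were also detected, so detection alone does not mark the tissue. The summed levels of 6 endothelial markers, all detected in every library, were 28840 to 38679 in developing E5 RPE and 20055 to 21695 in developing E4 RPE, and those of 11 periocular mesenchyme markers, all detected, were 145793 to 214931 and 103360 to 117354. Both sums were highest in E5 developing replicate 3. Sums over 7 detected neural retina progenitor markers reached 38775 in E5 developing replicate 2, against a lowest of 8223 in the same group. Sums over 12 neuronal markers of the neural retina reached 28746 in the same library, against a lowest of 8267 in its group. All of these neuronal markers except *TUBB3* had their highest value of the 18 libraries there, among them *ATOH7* (4744) and *NEFM* (5106). Sums of 8 leukocyte markers were 6505 to 8800 in developing E5 RPE and 4311 to 4712 in developing E4 RPE, and at 6hPR they were 10757 to 11571 and 5020 to 5654. The largest of the 8 were *CSF1R*, up to 9590, and *CD74*, up to 5129, both highest in an E5 library. *PTPRC*, *LY86*, *C1QA*, *C1QB*, *C1QC* and *SPI1* were each highest in an E4 library after retinectomy. The largest sums of another cell type were those of 7 erythrocyte markers, 314548 to 774973 in developing E4 RPE, 794824 to 1233660 at E4 6hPR and 297567 to 878912 in developing E5 RPE. The sums of the RPE markers themselves were 515256 to 604700 in developing E4 RPE and 928990 to 1310200 in developing E5 RPE. At E4 6hPR they were 481681 to 764873, below the erythrocyte sums of that group. The part of these cells in the results below was not tested. Developing E5 RPE was also the most variable group, with a median SD over genes of 0.257 on the log2 scale, against 0.092 to 0.172 in the other groups.

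The responses of *ID2*, *ID3* and *ID4* to retinectomy with FGF2 differed between the stages. That of *ID4* to retinectomy alone differed too. Against 6hPR, *ID4* was higher with FGF2 at both stages, and the difference between these rises did not pass the test. In developing RPE, *ID2*, *ID4*, *BMP4* and *SMAD6* were higher at E5 than at E4, and *BAMBI* and *GREM1* were lower. After retinectomy with FGF2 at E5, *ID1*, *ID2*, *ID3* and *ID4* all fell below their developing levels, whereas at E4 *ID4* rose, *ID2* fell and *ID1* and *ID3* did not pass the test. The E5 falls of *ID1* and *ID4* were lost without developing replicate 3, and the *ID4* libraries of both groups overlapped. *SMAD6* rose and *BAMBI* fell with FGF2 at both stages. A gene was called where limma gave an adjusted p of 0.05 or less over all genes tested. Between developing E5 and E4 RPE, 6 of the 10 genes were called, where 22.0% of all genes were. Between the stages at 6hPR 1 was called (all genes 19.7%), and at 6hPR + FGF2 4 were, each lower at E5 (all genes lower 12.8%, either way 29.5%). Against developing RPE, 2 of 10 genes were called at E4 6hPR (all genes 13.6%) and 5 of 10 at E5 6hPR (19.0%). At 6hPR + FGF2 6 were called at E4 (20.0%) and 6 at E5 (28.8%). Between 6hPR + FGF2 and 6hPR 4 were called at E4 (8.27%) and 5 at E5 (26.2%). At each stage these comparisons share libraries, the developing or the 6hPR controls, so their values are given side by side and not as separate evidence.

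**Figure D1:**
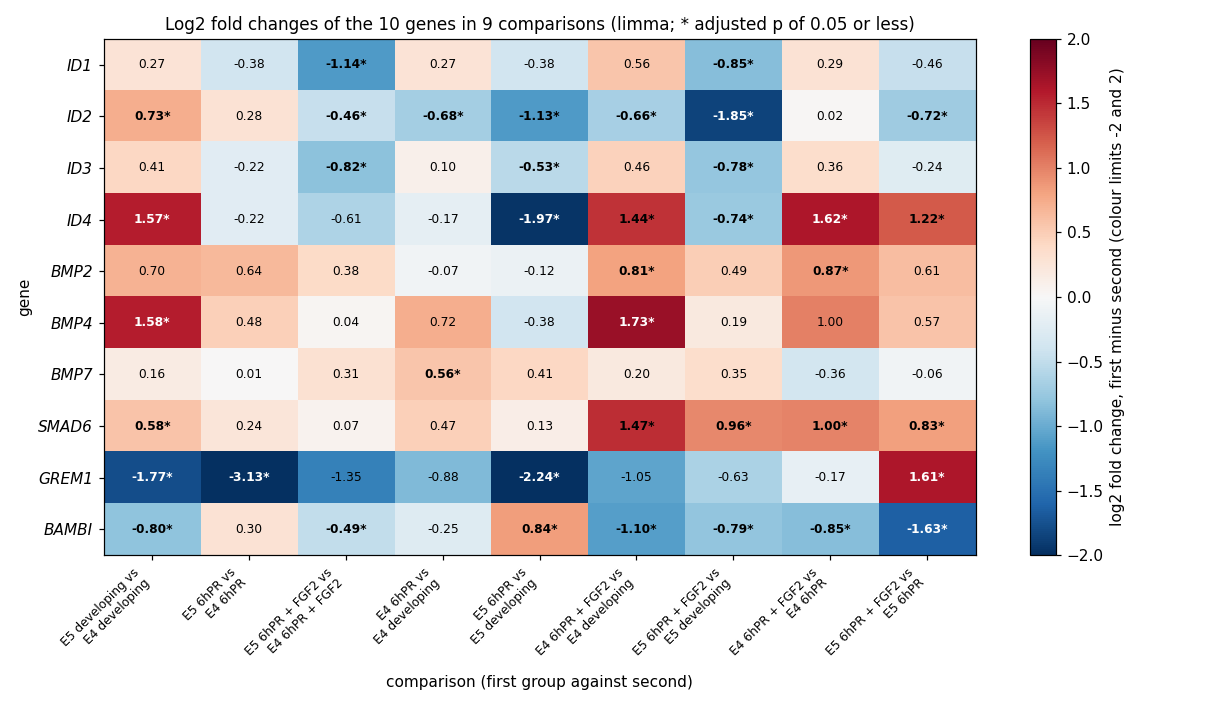
Log2 fold changes of the 10 genes (rows) in the 9 comparisons between groups (columns, first group minus second), with red for higher and blue for lower in the first group and an asterisk for an adjusted p of 0.05 or less. *ID2* is lower in all 4 comparisons of treated with developing RPE, from −0.66 to −1.85, and *SMAD6* and *BAMBI* have opposite signs in the 4 comparisons that add FGF2.

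*BMP4* (ENSGALG00000012429), a ligand that marks the dorsal eye, was low in developing E4 RPE and higher in developing E5 RPE. Its normalized counts in replicates 1 to 3 were 1341, 1236 and 1943 at E4 and 4957, 3185 and 5422 at E5, with no overlap (log2 fold change 1.58, SE 0.31, adjusted p = 0.0019). With 6hPR + FGF2 at E4 the counts were 6328, 4318 and 4279, 3.31-fold higher than in developing E4 RPE (log2 fold change 1.73, SE 0.31, adjusted p = 0.00099). At E5 the same treatment gave 4957, 4645 and 5573, overlapping with developing E5 RPE (log2 fold change 0.19, SE 0.31, adjusted p = 0.69, 95% interval −0.47 to 0.86). The stages thus overlapped with FGF2, and the 3 developing E4 libraries lay below all 6 libraries with FGF2. At 6hPR alone the E4 libraries gave 1758, 4616 and 1787, with replicate 2 far above the others. The E5 libraries gave 3489.8, 3851 and 2905. E4 6hPR replicate 2 was not apart for *BMP4* only. It was also the highest of its group for *BMP2*, *SMAD6* and each ID gene, and the lowest for *BMP7*, *BAMBI* and *GREM1*. It held the highest erythrocyte marker sum (1233660) and RPE marker sum (764873) of its group. The part of these cells in its levels was not tested. Replicate 2 of E4 6hPR decided how this group compared with others: the stage difference at 6hPR (log2 fold change 0.48, SE 0.31, adjusted p = 0.33) passed the test with array weights (adjusted p = 0.019) and without E4 6hPR replicate 2 (adjusted p = 0.012), and so did the difference between 6hPR + FGF2 and 6hPR at E4 (1.00, adjusted p = 0.06) with DESeq2, array weights and a minimum mean of 10 (adjusted p from 0.006 to 0.05) and without E4 6hPR replicate 2 (adjusted p = 0.0015).

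*BMP2* (ENSGALG00000029301), a close relative of BMP4, rose with FGF2 at E4. Its counts were 673, 489 and 727 in developing E4 RPE, 573, 833 and 437 at 6hPR and 1375, 1129 and 829 at 6hPR + FGF2. All 3 libraries with FGF2 were above those of developing E4 RPE, while replicate 3 with FGF2 was just under 6hPR replicate 2. The rise was 1.75-fold over developing RPE (log2 fold change 0.81, SE 0.25, adjusted p = 0.031) and 1.83-fold over 6hPR (log2 fold change 0.87, SE 0.25, adjusted p = 0.041). At E5 the counts were 1198, 722 and 1193 in developing RPE, 844, 879.8 and 1073 at 6hPR and 1473, 1414 and 1367 at 6hPR + FGF2. The E5 libraries with FGF2 were tightly grouped above every other E5 library, but the differences from developing E5 RPE (0.49, adjusted p = 0.16) and from 6hPR (0.61, adjusted p = 0.082) did not pass the test. The former passed with array weights (adjusted p = 0.044) and the latter with DESeq2, array weights and a fit of the compared groups alone (adjusted p from 0.006 to 0.048). The E4 rise over developing RPE was lost with a fit of the compared groups alone (adjusted p = 0.086) and without any of E4 6hPR + FGF2 replicates 1 or 2 or E4 developing replicates 1 or 2 (adjusted p from 0.055 to 0.14). That over 6hPR was lost with no variance trend and a fit of the compared groups alone (adjusted p from 0.065 to 0.23) and without any of E4 6hPR + FGF2 replicates 1 or 2 or E4 6hPR replicates 1 or 3 (adjusted p from 0.1 to 0.18). The stage differences of *BMP2* in developing RPE (0.70, adjusted p = 0.055) and at 6hPR (0.64, adjusted p = 0.084) missed the threshold. The developing difference passed it with DESeq2, edgeR and a minimum mean of 10 (adjusted p from 0.018 to 0.05) and without E5 developing replicate 2 (adjusted p = 0.014), and that at 6hPR with array weights (adjusted p = 0.0086) and without E4 6hPR replicate 2 (adjusted p = 0.02).

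*BMP7* (ENSGALG00000007668), a ligand needed for early eye growth in the mouse, varied least of the 10 genes between groups: its highest group mean was 1.49-fold its lowest. Counts were 3626, 4091 and 4102 in developing E4 RPE and 6491, 5298 and 5696 at E4 6hPR, with no overlap (log2 fold change 0.56, SE 0.16, adjusted p = 0.029). With FGF2 at E4 they were 3712, 5521 and 4522, overlapping with both of those groups. At E5 the counts were 5663, 4238 and 3538 in developing RPE, 6395, 5414 and 5772 at 6hPR and 5201, 5339.6 and 6312 at 6hPR + FGF2, and none of the E5 comparisons was called. The difference between 6hPR and developing RPE at E5 was 0.41 on the log2 scale (95% interval 0.07 to 0.75, adjusted p = 0.086). The single E4 call was lost without E4 6hPR replicates 1 or 3 or E4 developing replicates 1, 2 or 3 (adjusted p from 0.058 to 0.12). At E5, leaving out developing replicate 1, the highest of its group, gave calls for 6hPR (adjusted p = 0.013) and for 6hPR + FGF2 (adjusted p = 0.013).

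**Figure D2:**
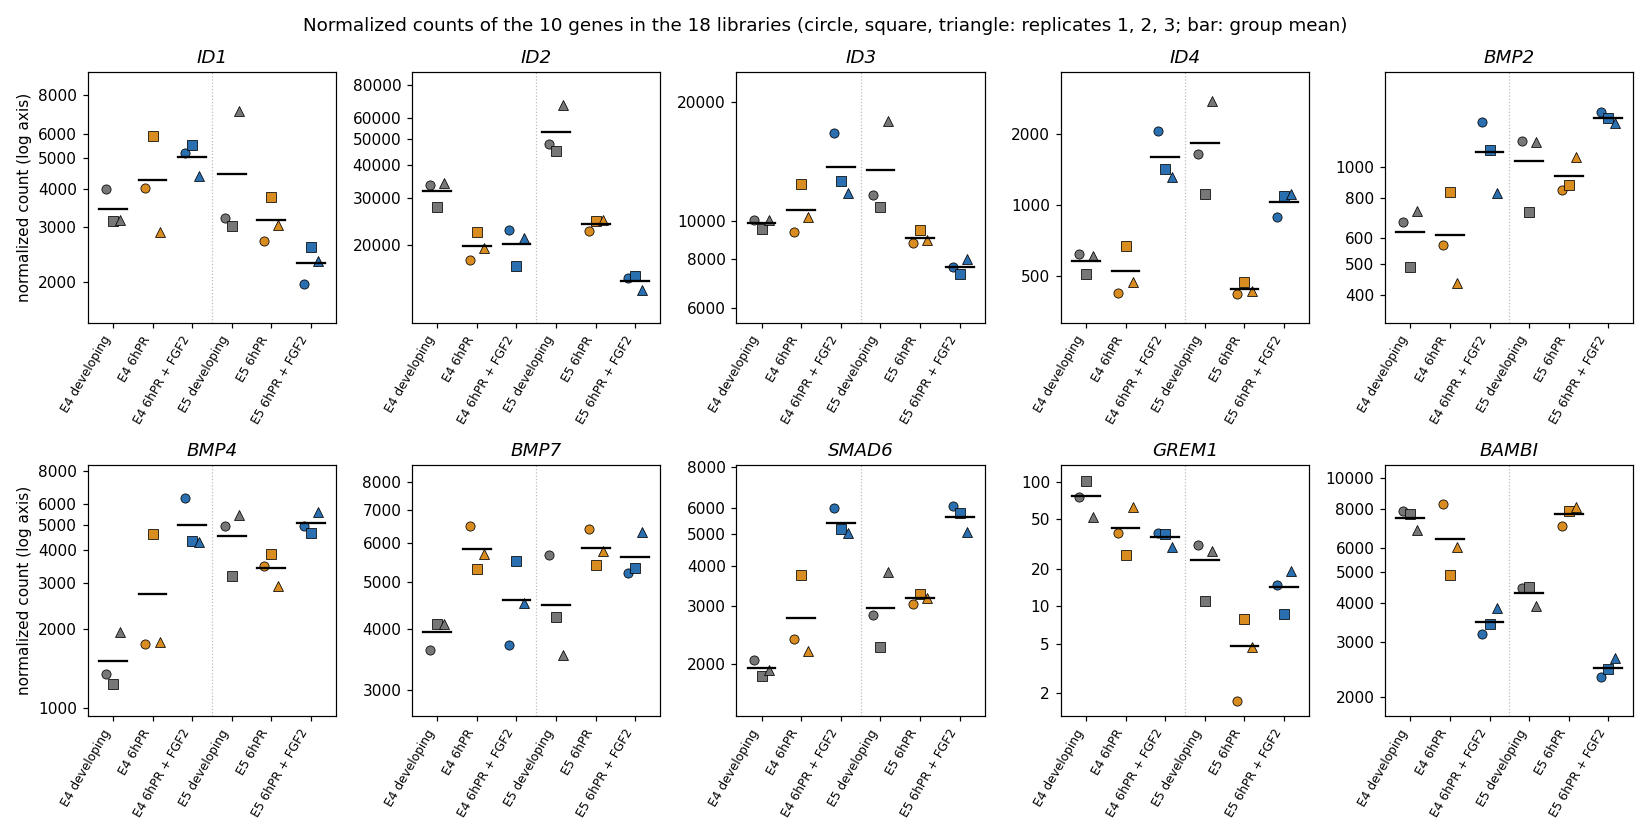
Normalized counts (log axis) of each of the 10 genes in the 18 libraries by group, with circles, squares and triangles for replicates 1, 2 and 3 and a bar at the group mean. The triangle of developing E5 RPE is the highest of the 18 points for *ID1*, *ID2*, *ID3* and *ID4*, and the 6hPR square at E4 stands above its group for *BMP4*, *BMP2* and *SMAD6*.

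*GREM1* (ENSGALG00000009724), a secreted protein that traps BMP2, BMP4 and BMP7, was counted by few reads and was lower at E5 than at E4 in developing RPE and at 6hPR. Developing E4 RPE had 76.2, 102 and 52.5 normalized counts and developing E5 RPE 31.4, 11.003 and 28.1, with no overlap (log2 fold change −1.77, SE 0.54, adjusted p = 0.027). At 6hPR the stages were further apart, with 39.1, 25.8 and 63.1 at E4 and 1.74, 7.86 and 4.76 at E5 (log2 fold change −3.13, SE 0.54, adjusted p = 0.00079). The E5 6hPR values stand for 2, 7 and 5 reads, and replicate 1 lies below the level of 3 reads. Within E5, *GREM1* fell from developing RPE to 6hPR (log2 fold change −2.24, SE 0.54, adjusted p = 0.0078) and was higher again with FGF2, at 15.0, 8.65 and 19.3 (log2 fold change 1.61, SE 0.54, adjusted p = 0.037). Every E5 6hPR library was below every other library for this gene. With FGF2 at E4 the counts were 38.8, 38.3 and 30.2, and neither treatment differed from developing E4 RPE past the threshold (adjusted p = 0.33 for 6hPR and 0.2 for 6hPR + FGF2). At such counts the fitted size depends on the pseudocount: with 5 in place of 0.5 the E5 fall at 6hPR was −1.50 and the stage difference at 6hPR −2.26 on the log2 scale. The developing stage call was lost with a fit of the compared groups alone (adjusted p = 0.1) and without E4 developing replicates 1 or 2 or E5 developing replicate 2 (adjusted p from 0.073 to 0.11), and the E5 fall at 6hPR with array weights and a fit of the compared groups alone (adjusted p from 0.085 to 0.13). The E5 rise with FGF2 was lost with edgeR, a fit of the compared groups alone and a pseudocount of 5 (adjusted p from 0.052 to 0.098) and without E5 6hPR + FGF2 replicates 1 or 3 or E5 6hPR replicates 1 or 3 (adjusted p from 0.073 to 0.15).

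*BAMBI* (ENSGALG00000040993), the kinase-less decoy receptor, gave 7 calls in the 9 comparisons between groups and fell with FGF2 at both stages. At E4 its counts were 7877, 7713 and 6819 in developing RPE, 8271, 4898 and 6028 at 6hPR and 3171, 3420.0 and 3860.1 at 6hPR + FGF2. All 3 libraries with FGF2 lay below the other 6, a fall against developing RPE (log2 fold change −1.10, SE 0.14, adjusted p = 6.8e-05) and against 6hPR (log2 fold change −0.85, SE 0.14, adjusted p = 0.0021). At E5 the counts were 4452, 4501 and 3909.6 in developing RPE, 7058, 7881 and 8123 at 6hPR and 2309, 2457 and 2664 at 6hPR + FGF2. Here the groups were fully separated: 6hPR was above developing RPE (log2 fold change 0.84, SE 0.14, adjusted p = 0.00068) and 6hPR + FGF2 below it (log2 fold change −0.79, SE 0.14, adjusted p = 0.00067). Against 6hPR, FGF2 at E5 came with a 3.10-fold fall (log2 fold change −1.63, SE 0.14, adjusted p = 3.1e-06). Between the stages *BAMBI* was lower at E5 in developing RPE (log2 fold change −0.80, SE 0.14, adjusted p = 0.00097) and at 6hPR + FGF2 (log2 fold change −0.49, SE 0.14, adjusted p = 0.019). Its E4 6hPR libraries spanned 4898 to 8271, and replicate 1, the highest, decided this group: without it the fall from developing RPE at E4 passed the test (adjusted p = 0.024), as did the stage difference at 6hPR (adjusted p = 0.0099). The stage call at 6hPR + FGF2 did not hold without E4 6hPR + FGF2 replicate 3 or the E5 6hPR + FGF2 replicates 1 or 2 (adjusted p from 0.054 to 0.073), and the E4 fall from 6hPR with a fit of the compared groups alone (adjusted p = 0.13).

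*SMAD6* (ENSGALG00000025898), the inhibitory SMAD, was higher with FGF2 at both stages. At E4 developing RPE had 2057, 1846 and 1921 normalized counts, 6hPR 2379, 3740.4 and 2193 and 6hPR + FGF2 5998, 5161 and 5014. The libraries with FGF2 were above all others at E4, 2.77-fold over developing RPE (log2 fold change 1.47, SE 0.18, adjusted p = 5.1e-05) and 2.00-fold over 6hPR (log2 fold change 1.00, SE 0.18, adjusted p = 0.0038). At E5 the counts were 2819.6, 2254 and 3812 in developing RPE, 3058, 3279 and 3189.8 at 6hPR and 6085, 5782 and 5073 at 6hPR + FGF2. FGF2 again gave the top 3 libraries of the stage, 1.95-fold over developing RPE (log2 fold change 0.96, SE 0.18, adjusted p = 0.0011) and 1.77-fold over 6hPR (log2 fold change 0.83, SE 0.18, adjusted p = 0.0044). The stage difference with FGF2 was 0.07 on the log2 scale, with a 95% interval of −0.32 to 0.46. In developing RPE *SMAD6* was higher at E5 (log2 fold change 0.58, SE 0.18, adjusted p = 0.035). That call was lost with array weights, no variance trend and a fit of the compared groups alone (adjusted p from 0.056 to 0.15) and without E4 developing replicates 1, 2 or 3 or E5 developing replicates 1 or 3 (adjusted p from 0.062 to 0.14), and the E4 call against 6hPR with a fit of the compared groups alone (adjusted p = 0.12). The stage difference at 6hPR (0.24, adjusted p = 0.42) passed the test with array weights (adjusted p = 0.029) and without E4 6hPR replicate 2 (adjusted p = 0.049).

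*ID2* (ENSGALG00000035016) was lower in treated than in developing RPE in all 4 comparisons. In developing RPE its counts were 33532, 27909.7 and 34109 at E4 and 47955, 45083 and 67235 at E5, with every E5 library above every E4 library (log2 fold change 0.73, SE 0.15, adjusted p = 0.0021). At 6hPR they were 17588, 22473 and 19454 at E4 and 22651, 24589.5 and 24888 at E5. Both stages had fallen below their developing range, at E4 (log2 fold change −0.68, SE 0.15, adjusted p = 0.0058) and at E5 (log2 fold change −1.13, SE 0.15, adjusted p = 6.5e-05). With FGF2 the counts were 22743, 16643 and 21254 at E4, overlapping with E4 6hPR (log2 fold change 0.02, SE 0.15, adjusted p = 0.98, 95% interval −0.29 to 0.33). At E5 they were 15049, 15249.7 and 13572, lower than at 6hPR (log2 fold change −0.72, SE 0.15, adjusted p = 0.0025). The 3 E5 libraries with FGF2 were thus the lowest of the 18, 3.60-fold below developing E5 RPE (log2 fold change −1.85, SE 0.15, adjusted p = 3.2e-07). With FGF2, *ID2* was lower at E5 than at E4 (log2 fold change −0.46, SE 0.15, adjusted p = 0.029), the reverse of the order in developing RPE. This last call was lost with a fit of the compared groups alone (adjusted p = 0.055) and without any of E4 6hPR + FGF2 replicates 1 or 3 or any of E5 6hPR + FGF2 replicates 1, 2 or 3 (adjusted p from 0.056 to 0.12), and the developing call with a fit of the compared groups alone (adjusted p = 0.076).

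*ID4* (ENSGALG00000039474) had the widest changes of the 4 ID genes, with a highest group mean 4.19-fold its lowest. Developing RPE had 622, 508 and 609 normalized counts at E4 and 1642, 1112 and 2765 at E5, with no overlap (log2 fold change 1.57, SE 0.26, adjusted p = 0.00058). At 6hPR the counts were 424, 672 and 470.1 at E4, overlapping with developing RPE (log2 fold change −0.17, SE 0.26, adjusted p = 0.75), and 419.6, 470.2 and 429 at E5, a 3.90-fold fall (log2 fold change −1.97, SE 0.26, adjusted p = 8.7e-05). The stages, apart before surgery, overlapped at 6hPR. With FGF2 *ID4* was higher than at 6hPR at both stages, with 2064, 1429 and 1311 at E4 (log2 fold change 1.62, SE 0.26, adjusted p = 0.0017) and 889, 1093 and 1115 at E5 (log2 fold change 1.22, SE 0.26, adjusted p = 0.0036). Every library with FGF2 was above every 6hPR library. Against developing RPE, the outcome of 6hPR + FGF2 was a rise at E4 (log2 fold change 1.44, SE 0.26, adjusted p = 0.0011) and a fall at E5 (log2 fold change −0.74, SE 0.26, adjusted p = 0.046). The E5 fall was lost with array weights, no variance trend and a fit of the compared groups alone (adjusted p from 0.065 to 0.22) and without E5 6hPR + FGF2 replicates 1, 2 or 3 or E5 developing replicates 1 or 3 (adjusted p from 0.065 to 0.23). The developing stage call was lost with a fit of the compared groups alone (adjusted p = 0.057), and the E4 rise over 6hPR with a fit of the compared groups alone (adjusted p = 0.07). At 6hPR + FGF2 the stages did not overlap, but the difference was not called (−0.61, adjusted p = 0.094).

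*ID1* (ENSGALG00000034661) and *ID3* (ENSGALG00000035317) had their highest group means at E4 with FGF2 and their lowest at E5 with FGF2. *ID1* counts were 5203, 5525 and 4407 at E4 and 1967, 2594 and 2332 at E5 with FGF2, with no overlap (log2 fold change −1.14, SE 0.28, adjusted p = 0.008). *ID3* counts were 16674, 12629.9 and 11779 and 7608, 7328 and 8007 in the same groups, again apart (log2 fold change −0.82, SE 0.16, adjusted p = 0.0017). Both genes were thus lower at E5 than at E4 in the 6hPR + FGF2 groups. In developing RPE *ID1* was 3995, 3135 and 3159 at E4 and 3205, 3034 and 7127 at E5 (0.27, adjusted p = 0.57). *ID3* was 10017, 9544 and 10012 and 11624, 10849.7 and 17862 (0.41, adjusted p = 0.082). Neither stage difference was called, and in both genes E5 developing replicate 3 was far above replicates 1 and 2. At 6hPR *ID1* was 4005, 5915 and 2907 at E4 and 2716, 3755 and 3057 at E5, and *ID3* was 9342, 12386 and 10209.9 and 8776, 9463 and 8918. For *ID3* the E5 libraries lay below all developing E5 libraries (log2 fold change −0.53, SE 0.16, adjusted p = 0.029), and no other 6hPR comparison with developing RPE was called for these genes. Between 6hPR + FGF2 and 6hPR neither gene was called. The differences were 0.29 at E4 and −0.46 at E5 for *ID1* (adjusted p = 0.6 and 0.25). For *ID3* they were 0.36 and −0.24 (adjusted p = 0.2 and 0.29). All but that of *ID1* at E4 passed with array weights, and that of *ID3* at E5 also with the compared groups alone.

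With FGF2 at E5, *ID3* fell below developing E5 RPE (log2 fold change −0.78, SE 0.16, adjusted p = 0.0018) and so did *ID1* (log2 fold change −0.85, SE 0.28, adjusted p = 0.035). At E4 the differences from developing RPE were 0.56 for *ID1* (adjusted p = 0.2) and 0.46 for *ID3* (adjusted p = 0.057). That of *ID3* had no overlap of its libraries and passed the test with DESeq2, array weights, a minimum mean of 10 and quantile normalization (adjusted p from 0.007 to 0.048) and without E4 6hPR + FGF2 replicate 3 (adjusted p = 0.04). The E5 fall of *ID1* was lost with array weights, no variance trend and a fit of the compared groups alone (adjusted p from 0.056 to 0.19) and without E5 6hPR + FGF2 replicates 1, 2 or 3 or E5 developing replicate 3 (adjusted p from 0.052 to 0.17). For *ID3* the fall at E5 6hPR was lost with array weights and a fit of the compared groups alone (adjusted p from 0.057 to 0.2) and without E5 6hPR replicates 1, 2 or 3 or E5 developing replicate 3 (adjusted p from 0.058 to 0.09), and that with FGF2 with a fit of the compared groups alone (adjusted p = 0.064). The stage difference of *ID3* in developing RPE passed the test with DESeq2 and quantile normalization (adjusted p from 0.032 to 0.05) and without E5 developing replicate 2 (adjusted p = 0.03).

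Because E5 developing replicate 3 held the highest level of all 4 ID genes and the highest endothelial and mesenchymal sums of its group, the E5 values were also taken without it. Without it the stage difference in developing RPE was 0.55 for *ID2* (adjusted p = 0.0074) and 1.23 for *ID4* (adjusted p = 0.0014) on the log2 scale, and both remained called. For *ID1* it was −0.13 (adjusted p = 0.75). The E5 falls with FGF2 were then −1.67 for *ID2*, −0.56 for *ID3*, −0.45 for *ID1* and −0.40 for *ID4*, of which those of *ID2* and *ID3* passed the test. E5 developing replicate 2, with the highest progenitor and neuronal sums of its group, had the lowest levels there of all 4 ID genes. It was also the lowest of the group for *BMP2*, *BMP4*, *SMAD6* and *GREM1*, but not for *BMP7* or *BAMBI*. In the comparison of the stages with FGF2, which does not use developing RPE, endothelial sums were 23216 to 25973 at E4 and 21979 to 24034 at E5, and mesenchymal sums 137918 to 159915 and 105110 to 174491. Those of neural retina progenitors were 24897 to 34792 at E4 and 15426 to 20453 at E5, those of 12 neuronal markers 8608 to 11017 and 11249 to 13049, those of leukocytes 3716 to 6571 and 9308 to 12644, those of erythrocytes 498807 to 1153580 and 481954 to 655513, and those of the RPE markers 449301 to 693885 and 1003060 to 1164880. The progenitor sums were lower at E5, as were *ID1*, *ID2* and *ID3*. The neuronal, leukocyte and RPE sums were higher. None of these overlapped between the stages. Detection of the neuronal markers went the other way from their sum: 11 of 12 were above 0 in all E4 libraries with FGF2. In all E5 libraries with FGF2, 9 of 12 were. *TUBB3* was at least 5365 and *ELAVL4* at least 1807 in each of the 18 libraries. Of the 11 mesenchyme markers, 11 were above 0 in all E4 libraries with FGF2 and 10 in all such E5 libraries. Single leukocyte markers did not all follow their sum: *PTPRC*, *LY86*, *C1QA* and *SPI1* had their highest value of all libraries in an E4 library with FGF2. The part of these cells in the stage differences was not tested.

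Whether a response differed between the stages was tested as an interaction, the E5 response minus the E4 response. For 6hPR against developing RPE, 2 of the 10 genes were called, where 2.99% of all genes were. The *ID4* response was lower at E5 (difference of the log2 fold changes −1.79, SE 0.37, adjusted p = 0.02), and *BAMBI*, which rose at E5, had a higher response there (difference of the log2 fold changes 1.10, SE 0.20, adjusted p = 0.011). For 6hPR + FGF2 against developing RPE, 3 were called (all genes 5.56%, lower 2.42%), each an ID gene with a lower response at E5. These were *ID2* (difference of the log2 fold changes −1.19, SE 0.21, adjusted p = 0.0052), *ID3* (difference of the log2 fold changes −1.24, SE 0.23, adjusted p = 0.0067) and *ID4* (difference of the log2 fold changes −2.18, SE 0.37, adjusted p = 0.0044). *ID1* went the same way but missed the threshold (difference of the log2 fold changes −1.41, SE 0.40, adjusted p = 0.053), as did *BMP4* (difference of the log2 fold changes −1.53, SE 0.44, adjusted p = 0.055). The interaction of *ID1* passed it with DESeq2, array weights, edgeR, a minimum mean of 10 and quantile normalization (adjusted p from 0.0042 to 0.046) and without E5 developing replicates 1 or 2 (adjusted p from 0.025 to 0.032). That of *BMP4* passed it with DESeq2, array weights, a minimum mean of 10, a fit of the compared groups alone and quantile normalization (adjusted p from 0.0073 to 0.047) and without E5 developing replicate 2 (adjusted p = 0.035). For *SMAD6* the interaction was −0.51 (95% interval −1.06 to 0.04) and for *BAMBI* 0.31 (−0.12 to 0.74). For 6hPR + FGF2 against 6hPR, limma called 0 of the 10 genes (all genes 2.54%), with 4 at an unadjusted p below 0.05. With edgeR 0 were called and with DESeq2 2. Closest to the threshold were *BAMBI* (difference of the log2 fold changes −0.79, SE 0.20, adjusted p = 0.052) and *ID2* (difference of the log2 fold changes −0.74, SE 0.21, adjusted p = 0.061). *BAMBI* passed it with DESeq2, TMM scaling, array weights, a minimum mean of 10 and a pseudocount of 5 (adjusted p from 0.0041 to 0.049) and without E4 6hPR replicates 1 or 2 or E5 6hPR replicate 1 (adjusted p from 0.018 to 0.043). *ID2* passed it with DESeq2, array weights, a fit of the compared groups alone and quantile normalization (adjusted p from 0.0051 to 0.045) and without E4 6hPR + FGF2 replicate 2 or E4 6hPR replicate 2 (adjusted p from 0.031 to 0.042). The 6hPR interaction of *ID4* was lost with a fit of the compared groups alone (adjusted p = 0.067).

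**Figure D3:**
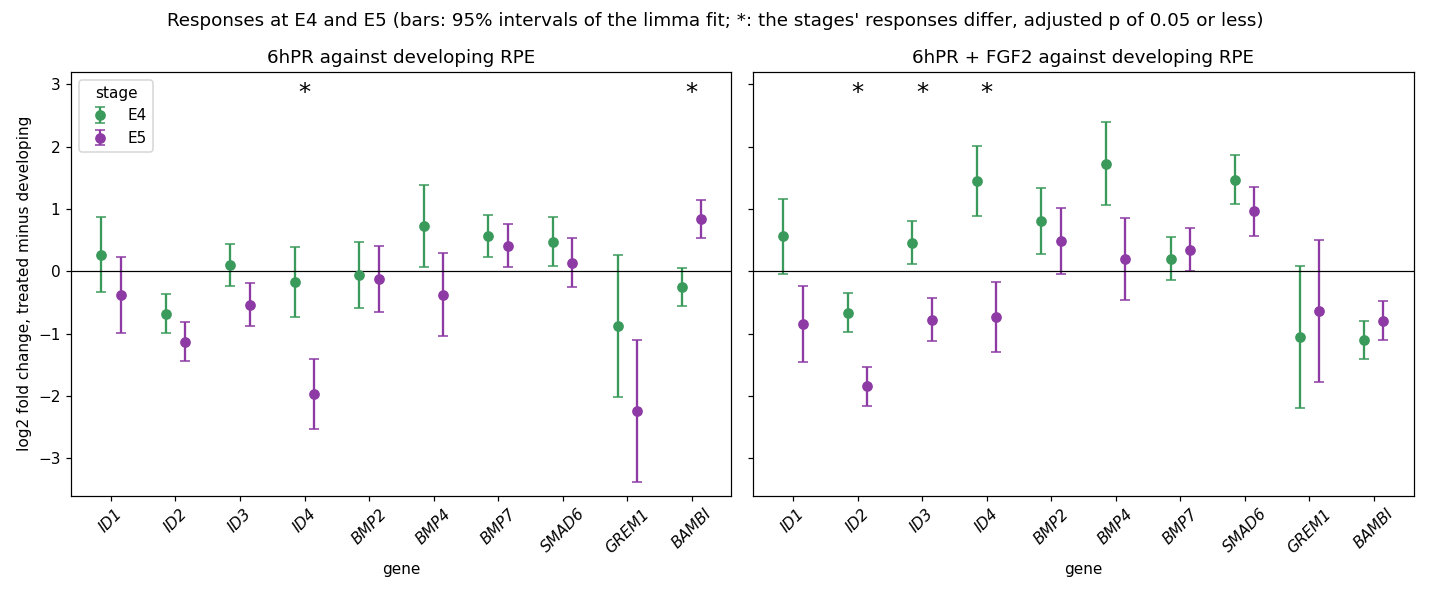
Log2 fold changes against developing RPE of the same stage for 6hPR (left) and 6hPR + FGF2 (right), with E4 in green, E5 in purple, bars for 95% intervals of the fit and an asterisk where the response differed between the stages at an adjusted p of 0.05 or less. With FGF2 the purple points of *ID1*, *ID3* and *ID4* lie below 0 and the green ones above it, and for *SMAD6* both lie above 0.

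Ordered by group mean, the genes fell into a few arrangements. The order of *ID2* began with developing E5 and developing E4 RPE, each apart from its neighbour, and ended with E5 6hPR + FGF2, whose libraries did not overlap with the next group. *ID1* and *ID3* both began with E4 6hPR + FGF2 and developing E5 RPE, which overlapped, and ended with E5 6hPR and E5 6hPR + FGF2, which did not. For *ID4* the first pair was developing E5 RPE and E4 6hPR + FGF2, overlapping, and the last 3 groups were developing E4 RPE, E4 6hPR and E5 6hPR, each overlapping with the next. For *BMP2*, *BMP4* and *SMAD6* the first pair was E5 and E4 6hPR + FGF2, overlapping in each gene. Developing E4 RPE was last for *BMP4*, *BMP7* and *SMAD6*, and only for *SMAD6* did it not overlap with the group before it. *BAMBI* ended with E4 and then E5 6hPR + FGF2, which did not overlap. *GREM1* ran from developing E4 RPE down to E5 6hPR, and the E5 6hPR group was the only one apart from its neighbour.

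Each gene was also set beside the genes whose levels were most like its own over the 18 libraries, by Pearson correlation of log2 values among genes with a mean of at least 50 normalized counts. The libraries share groups, depth and cell makeup, so these are descriptions without a test. *ID1* was most like *CNN2* (r = 0.91), *RARRES2* (r = 0.91) and *AARSD1* (r = 0.89), and *ID3* was most like *RAB34* (r = 0.91), *ID1* (r = 0.86) and *AARSD1* (r = 0.86). Each of them has *AARSD1* among its 3 nearest genes. *ID2* was most like *TMEM55A* (r = 0.95), *FAM89A* (r = 0.95) and *ALG6* (r = 0.95), and *ID4* was most like *TGFB3* (r = 0.94), *EXT1* (r = 0.88) and *SLC35E3* (r = 0.88). *TGFB3* encodes a ligand of the same superfamily as the BMPs. The nearest genes of *BMP2* were *RAC1* (r = 0.95), *STIM1* (r = 0.94) and *KAZALD1* (r = 0.94), those of *BMP4* *NDEL1* (r = 0.92), *SLC6A9* (r = 0.91) and *PIK3C2G* (r = 0.90) and those of *BMP7* *SLC4A7* (r = 0.87), *BMF* (r = 0.86) and *DOCK5* (r = 0.86). None of these lists holds another of the ligands. *SMAD6* was most like *ANXA2* (r = 0.97), *ETV6* (r = 0.96) and *FXYD6* (r = 0.96). *ETV6* encodes a factor of the ETS family. For *BAMBI* the nearest were *TMEM132E* (r = 0.93), *KCNAB1* (r = 0.92) and *SAMD11* (r = 0.92), and for *GREM1*, whose mean is below 50, *TUBB* (r = 0.91), *RCC1* (r = 0.90) and *WDR76* (r = 0.90).

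Other genes of the pathway were taken from lists of 76 further symbols, of which 68 were tested, and the most highly expressed of each list are named. Over all lists, 14 of the 68 differed between developing E5 and E4 RPE (9 higher and 5 lower), and 25 between the stages at 6hPR + FGF2 (18 higher and 7 lower). Against developing RPE, at 6hPR + FGF2 17 were called at E4 (11 higher and 6 lower) and 28 at E5 (14 higher and 14 lower), and at 6hPR 5 at E4 (4 higher and 1 lower) and 17 at E5 (12 higher and 5 lower). These are 20.6%, 36.8%, 25.0%, 41.2%, 7.35% and 25.0% of the 68, against the shares of all genes given above.

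Of 9 other ligands, 3 were called between E5 6hPR and developing E5 RPE, each higher at 6hPR (33.3%, all genes either way 19.0%). Between E5 6hPR + FGF2 and E5 6hPR 3 were called, each lower with FGF2 (33.3%, all genes either way 26.2%). *BMP6*, a ligand related to BMP7, was among both: its means were 2436 ± 528, 4470.4 ± 161 and 1946 ± 100.3 (SD, n = 3) in developing, 6hPR and 6hPR + FGF2 E5 RPE. It rose at 6hPR (log2 fold change 0.90, SE 0.20, adjusted p = 0.0046) and was lower with FGF2 than at 6hPR (log2 fold change −1.20, SE 0.20, adjusted p = 0.00054). At E4 its means were 2198 ± 215, 2235 ± 458 and 905 ± 299, and with FGF2 it was below developing RPE (log2 fold change −1.32, SE 0.20, adjusted p = 0.00021). *BMP6* thus fell at E4 6hPR + FGF2, where *BMP4* and *SMAD6* rose. *BMP5*, of the same branch, also rose at E5 6hPR (1.12, adjusted p = 0.00073) and was lower with FGF2 than at 6hPR (−1.04, adjusted p = 0.0013). *GDF2*, a ligand of endothelial receptors, was lower at E5 with FGF2 than in developing E5 RPE (−4.64, adjusted p = 0.0087), but its developing E5 libraries ran from 20.8 to 688 normalized counts with a median of 37.0, so a single library held most of that group's signal. Its libraries ran from 0 to 13.2 at E5 6hPR + FGF2, so the fitted size depends on the pseudocount, and from 4.35 to 10.5 at E5 6hPR.

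Of 11 receptors and co-receptors tested, 4 rose and 2 fell at E5 with FGF2 against developing RPE (54.5%, all genes 28.8%). *ACVR2A*, a receptor shared by BMPs and activins, rose from 4090.2 ± 888 to 5842 ± 239 (log2 fold change 0.54, SE 0.14, adjusted p = 0.0083). *ACVR1* had means of 8016 ± 360.1 and 7663 ± 54.9 in the same groups, and *ENG*, an endothelial co-receptor, 6848 ± 2301 and 5002 ± 616, and neither was called in any of the 12 comparisons. Of 18 secreted antagonists and modulators tested, 6 were higher and 2 lower in developing E5 than E4 RPE (44.4%, all genes 22.0%). At E5 6hPR + FGF2 against developing RPE 2 were higher and 7 lower (9 of 18 called, all genes 28.8%). *FSTL1*, which binds BMP4 in the mouse, had 118744 ± 2152 at E4 and 181461 ± 10079.9 at E5 (log2 fold change 0.61, SE 0.11, adjusted p = 0.001). *TWSG1*, which acts with chordin on BMP ligands, was higher at E5 (0.94, adjusted p = 5.1e-05), and *NBL1*, a relative of GREM1, was lower (−0.78, adjusted p = 0.0059). With FGF2 *NBL1* fell below developing RPE at E4 (−0.87, adjusted p = 0.003) and at E5 (−0.61, adjusted p = 0.021). *FSTL1* at 6hPR + FGF2 was also below developing RPE (−0.44, adjusted p = 0.011 at E4 and −0.68, adjusted p = 0.00026 at E5). Its means at 6hPR and 6hPR + FGF2 were 108049 and 88082 at E4 and 110489 and 114197 at E5. At E5 its level was thus no lower with FGF2 than after retinectomy alone.

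Among 9 SMADs and intracellular inhibitors, the phosphatase *PPM1A*, which removes phosphate from SMADs, rose with FGF2 against developing RPE at E4 (0.36, adjusted p = 0.0073) and at E5 (0.54, adjusted p = 0.00021). *SMAD1* rose at E5 by a small amount, 0.34 at 6hPR and 0.32 with FGF2 (adjusted p = 0.032 and 0.028), and *SMAD5* was not called in any comparison, with group means from 12220.8 to 15996. Among 19 other genes described as BMP targets, *HEY1* is a transcriptional repressor that Notch also induces. It was lower at 6hPR + FGF2 than in developing RPE at E4 (−0.77, adjusted p = 0.0032) and at E5 (−0.99, adjusted p = 3e-04). Its means in developing, 6hPR and 6hPR + FGF2 RPE were 9164, 7031 and 5377 at E4 and 8062, 4762 and 4137 at E5. At E5 the libraries of 6hPR (4605 to 4843) and 6hPR + FGF2 (2856 to 4795) overlapped. *EPHB3*, an ephrin receptor, rose at E5 6hPR (0.42, adjusted p = 0.0028), and *EPHB2* was not called in any comparison. The E proteins are bHLH factors that ID proteins bind. *TCF12* had means of 29822 ± 5362 in developing E5 RPE, 47398 ± 2176 at 6hPR and 46366 ± 1748 with FGF2, a rise in both treated groups (0.68, adjusted p = 0.00019 and 0.65, adjusted p = 0.00016), where *ID2*, *ID3* and *ID4* fell. At E4 it rose at 6hPR (0.41, adjusted p = 0.014) but its value with FGF2 was 0.11, adjusted p = 0.53, and the response to 6hPR + FGF2 was higher at E5 (0.55, adjusted p = 0.036). *TCF3* rose at E5 with FGF2 (0.45, adjusted p = 0.036).

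**Figure D4:**
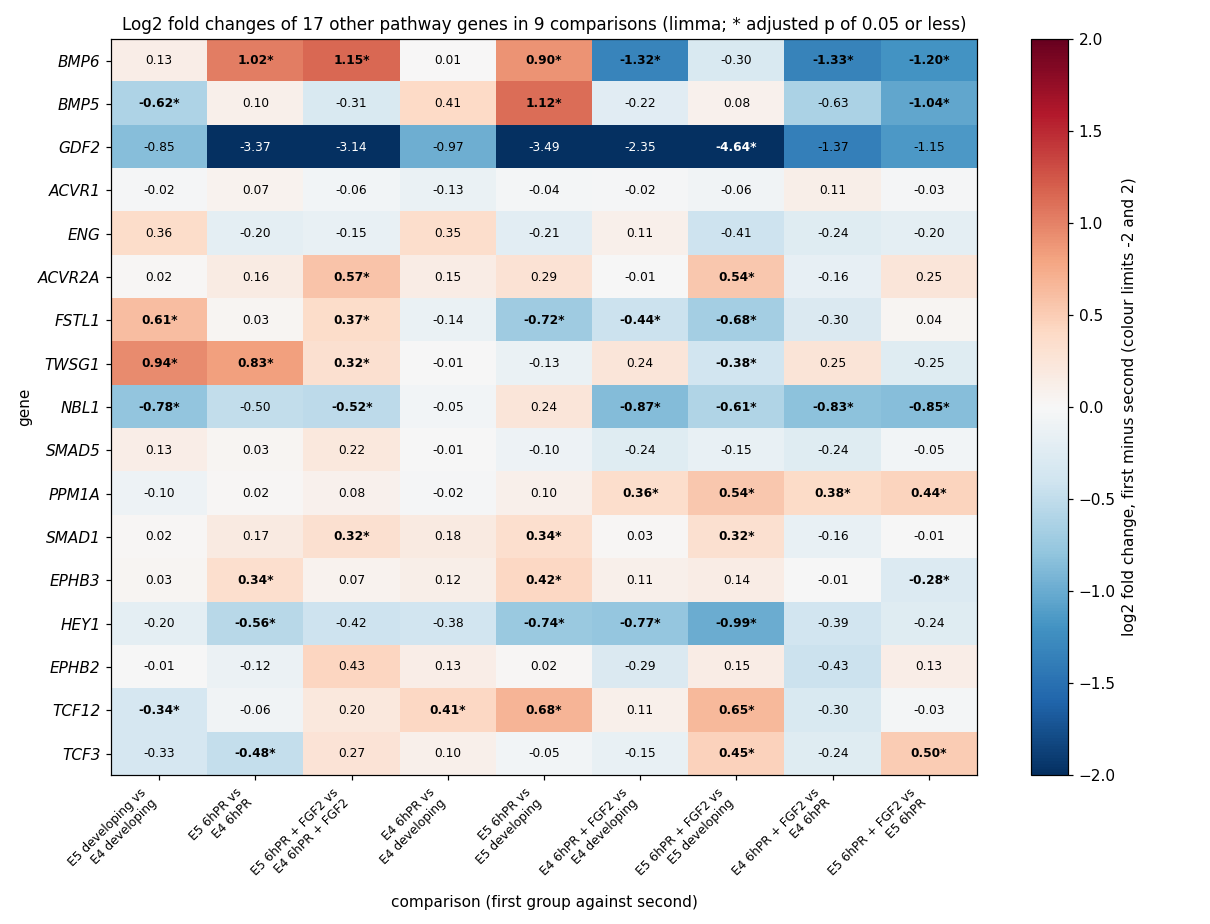
Log2 fold changes of 17 further pathway genes (rows, from ligands at the top to E proteins at the bottom) in the 9 comparisons between groups, drawn as for the 10 genes, with an asterisk for an adjusted p of 0.05 or less. *BMP6* is blue in the comparisons of FGF2 with 6hPR (−1.33 at E4 and −1.20 at E5), while *PPM1A* is red there (0.38 and 0.44).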

How the data were processed

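Bulk RNA-seq of chicken RPE in 18 libraries was analysed from a table of gene counts that the authors had normalized before deposit. Per the labels and the study's methods, polyA RNA was made into stranded libraries, cutadapt and Trim Galore served to trim the reads, STAR to align them to GRCg6a and StringTie to count them per Ensembl gene (release 101), and genes with fewer than 10 raw counts were dropped. Tool versions are not given in the sources used here. The deposited values are a signal, reads divided by a DESeq2 size factor, with no correction for gene length. Multiplied by that factor, 100% of the values fell within 1e-06 of a whole number, and these recovered reads were used for library totals, edgeR and DESeq2.

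The main test was limma 3.58.1 in R 4.3.3 on log2(normalized count + 0.5), with 6 group means over 18 libraries, a variance trend and Benjamini-Hochberg adjustment over 18287 genes (sum of 10 or more, 49 genes left out). Fold changes on this scale understate changes of low genes. Calls were made at an adjusted p of 0.05 or less in 9 pairwise comparisons and 3 interactions. Because the deposited values are normalized, limma on the log scale was the main test, and the study's own test, DESeq2, was run on the recovered reads as an alternative. Other alternatives were pseudocounts of 1 and 5, no filter, a minimum mean of 10, TMM scaling, quantile normalization, array weights, no trend, a replicate block, a fit of the compared groups alone, edgeR 4.0.16 and DESeq2 1.42.0, and each library left out in turn. The edgeR quasi-likelihood test called 1411 to 5189 genes in the pairwise comparisons and 405 to 912 in the interactions. P-values measure the spread between pools, taken for each gene as 1 moderated value shared by all 6 groups. The SE of a comparison is thus not that of the groups compared. Spread was unequal: the log2 SD of *ID4* was 0.659 in developing E5 RPE and 0.087 at E5 6hPR. The SE therefore does not follow the larger spread of developing E5 RPE. The fits were tested on simulated data.

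The 10 genes and the lists were chosen with earlier results of these data known. Named beside them were up to 3 genes of each list with the highest mean normalized count, whatever their change, and for each of the 10 the 3 genes of highest Pearson correlation. Of 86 listed symbols, 8 were not analysed here. Gene positions and sequences were not used here.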

Additional observations from a re-analysis of the deposited data

Results flagged for a closer look

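In 5 results the response of a gene differed between E4 and E5 by the interaction test of limma, the E5 response minus the E4 response on the log2 scale. For 6hPR + FGF2 against developing RPE the difference was −1.19 for *ID2*, which fell at both stages and further at E5, and it ran from −1.32 to −1.01 with each library left out in turn. For *ID3* it was −1.24 (−1.37 to −1.01 with a library left out), from 0.46 at E4 and −0.78 at E5. For *ID4* it was −2.18 (−2.49 to −1.84), from a rise of 1.44 at E4 and a fall at E5 (−0.74). For 6hPR against developing RPE the difference was −1.79 for *ID4* (−2.10 to −1.45) and 1.10 for *BAMBI* (0.92 to 1.30). These 5 calls held with each library left out in turn, with adjusted p up to 0.05. The ID gene differences all use developing E5 RPE, whose libraries spread more than those of any other group. The part of its levels of markers of other cell types in them was not tested.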

How the results depend on the processing

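Of 120 tests of the 10 genes (12 comparisons each), 44 passed the threshold. Of these, 25 passed in all 12 alternatives and with each replicate left out, 19 were lost in at least 1 of them, and 0 reversed. The fit of the compared groups alone lost 17 calls and gained 7, and array weights lost 5 and gained 19. DESeq2 gained 12, quantile normalization 5, a minimum mean of 10 6, edgeR lost 1 and gained 2, and no variance trend lost 4. The number of the 10 genes called moved by more than 1.5 times in the following cases. With the compared groups alone it went from 6 to 2 in developing E5 against E4 RPE, from 5 to 3 in E5 6hPR against developing, from 6 to 3 in E5 6hPR + FGF2 against developing, from 4 to 0 in E4 6hPR + FGF2 against 6hPR, from 2 to 1 for the 6hPR interaction and from 0 to 1 for that of 6hPR + FGF2 against 6hPR (the FGF2 step). With array weights it went from 1 to 5 between the stages at 6hPR, from 5 to 3 in E5 6hPR against developing, from 5 to 8 in E5 6hPR + FGF2 against 6hPR, from 3 to 5 for the 6hPR + FGF2 interaction and from 0 to 4 for the step. With DESeq2 it was 4 in place of 2 for E4 6hPR against developing, 5 in place of 3 for the 6hPR + FGF2 interaction and 2 in place of 0 for the step. With a minimum mean of 10 and with quantile normalization the latter pair were 5 and 1, and with a pseudocount of 5 or TMM scaling the step gave 1. With each replicate left out the counts ran from 4 to 7 (developing E5 against E4), 1 to 4 (the stages at 6hPR), 2 to 4 (the stages at 6hPR + FGF2), 1 to 2 (E4 6hPR against developing), 4 to 6 (E5 6hPR against developing), 5 to 7 (E4 6hPR + FGF2 against developing), 4 to 6 (E5 6hPR + FGF2 against developing), 3 to 5 (E4 6hPR + FGF2 against 6hPR), 4 to 5 (E5 6hPR + FGF2 against 6hPR), 2 to 2 (6hPR interaction), 3 to 5 (6hPR + FGF2 interaction), 0 to 2 (interaction of the step).

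Over all genes the counts of calls moved by more than 1.5 times, over the alternatives, from 4015 to as few as 1760 (developing stages), from 3600 to as many as 5984 (stages at 6hPR), from 2483 to 3875 (E4 6hPR), from 3476 to 1270 (E5 6hPR), from 5261 to 2756 (E5 6hPR + FGF2), from 1512 to 197 and 2708 (E4 step), from 4798 to 8866 (E5 step), and for the interactions from 546 to 283 and 1294, from 1016 to 677 and 1892, and from 465 to 165 and 5206. Between the stages at 6hPR + FGF2, 56.7% of called genes were higher at E5, but 43.7% under quantile normalization. Replicate numbers did not mark pairs: 7 of 18 libraries were on average closest to their own number in other groups. Under the replicate block 4 of the 44 calls were lost and 0 gained, and the lost calls were *ID4* in E5 6hPR + FGF2 against developing, *BMP2* in E4 6hPR + FGF2 against 6hPR, *SMAD6* between developing stages and *GREM1* in E5 6hPR + FGF2 against 6hPR. Depth limits only *GREM1*, whose lowest library held 2 reads.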

Other observations

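Secreted inhibitors outside the 10 genes moved in both directions, and those named below were chosen after their values were seen. *FST*, follistatin, which binds activins and some BMPs, had 35.2, 14.9 and 23.4 normalized counts in developing E4 RPE and 299, 200.05 and 206 at E4 6hPR + FGF2 (log2 fold change 3.30, SE 0.48, adjusted p = 0.00018). At E5 the same groups had 30.3, 18.0044 and 34.2 and 1899.6, 1415 and 1029 (log2 fold change 5.70, SE 0.48, adjusted p = 5.6e-07). The interaction of *FST* for this response was not called (difference of the log2 fold changes 2.40, SE 0.68, adjusted p = 0.052). That for 6hPR + FGF2 against 6hPR was not called either (2.64, adjusted p = 0.052). With FGF2 its E5 libraries were all above its E4 libraries (log2 fold change 2.60, SE 0.48, adjusted p = 0.0012). *NOG*, noggin, a BMP trap, was higher at E5 than at E4 in developing RPE (240.3, 221 and 295 at E4, 613, 510.1 and 765 at E5, log2 fold change 1.31, SE 0.30, adjusted p = 0.0052). It was higher at 6hPR + FGF2 than in developing RPE at both stages (1.30, adjusted p = 0.0058 at E4 and 1.15, adjusted p = 0.0092 at E5). Its differences between 6hPR + FGF2 and 6hPR were not called (0.70, adjusted p = 0.18 at E4 and 0.21, adjusted p = 0.65 at E5). At E5 it was already higher at 6hPR than in developing RPE (0.94, adjusted p = 0.038). *CHRDL1*, a chordin relative that binds BMPs, had 2425, 2205 and 2279 in developing E4 RPE and 5009, 13976 and 6404 in developing E5 RPE (log2 fold change 1.73, SE 0.27, adjusted p = 0.00037), with replicates of developing E5 RPE far apart. The highest, replicate 2, also held the highest progenitor and neuronal marker sums of its group. With FGF2 at E5 *CHRDL1* had 2708, 2887 and 2151, lower than in developing RPE (−1.58, adjusted p = 0.00044) and than at 6hPR (−0.81, adjusted p = 0.04). *BMPER*, which binds BMPs outside the cell, was also lower than in developing RPE at E5 6hPR + FGF2 (−2.11, adjusted p = 0.019). It was lower at E5 6hPR too (−1.85, adjusted p = 0.049). In developing E5 RPE replicate 1 had 2269 and the others 187 and 363.

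*TBX5* and *TBX2*, transcription factors of the dorsal eye, were also chosen after their values were seen. They come from the list of 19 other BMP targets, of which 3 were higher and 0 lower at E4 6hPR than in developing RPE (15.8%, all genes 13.6%), and 3 higher and 3 lower at E5 6hPR (31.6%, all genes 19.0%). *TBX5* was higher at 6hPR than in developing RPE at E4 (162, 194 and 215 in developing RPE against 297, 473 and 454, log2 fold change 1.08, SE 0.32, adjusted p = 0.037) and at E5 (566, 398 and 202 against 801, 897 and 623, log2 fold change 1.10, SE 0.32, adjusted p = 0.026). *TBX2* did the same at E4 (1.25, adjusted p = 0.00039) and at E5 (0.58, adjusted p = 0.037), and its response to 6hPR + FGF2 was lower at E5 (−1.07, adjusted p = 0.028).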
